A study of Mus musculus with 4 samples.

Results

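The genes described here encode the translation initiation and elongation factors. They were chosen by name: a member is a protein-coding gene of GENCODE M1 (mouse build mm9) whose symbol starts with Eif or Eef followed by a digit. This gave 66 genes of 22238 protein-coding genes, from 67 annotation records, because Eef2k has 2 records that lie over each other. A member was counted as having an SHP peak where a peak of the deposited lists came within 5 kb of its gene body. The vehicle list has 1508 peaks, 9 of them near a member, and the FGF19 list has 3155, 21 of them near a member.

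SHP (NR0B2) is a nuclear receptor with no known ligand. It cannot bind DNA by itself and is held on chromatin by partner proteins. The mice were wildtype C57BL/6 males aged 8 to 12 weeks. After a 12 h fast they received vehicle or FGF19 (1 mg/kg) by the tail vein, and livers were collected 2 h later. FGF19 is an intestinal hormone released after a meal. ChIP and input samples of 3 mice per group were pooled for sequencing, giving a single ChIP library (antibody sc-30169) and a single input library. Differences between the groups therefore carry no replicate error. The ChIP libraries held 15473647 tags with vehicle and 13444078 with FGF19 after duplicate tags were removed. The peak lists carry no expression values, so the labelled tissue was not checked against marker genes.

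Translation starts when eIF2 brings the initiator tRNA to the small ribosomal subunit, where eIF1, eIF1A and eIF3 help it to find the start codon. The eIF4 proteins bind the cap of the mRNA, unwind its leader and bridge it to the ribosome, and eIF5 and eIF5B finish the assembly. The eEF1 proteins then deliver each aminoacyl-tRNA and eEF2 moves the ribosome along by each codon. Kinases and inhibitors act on these factors when nutrients, stress or hormones change, above all on eIF2 and on the cap-binding protein eIF4E. The eIF2C genes of this annotation are Argonautes, which carry small RNAs and are members only through their older symbol.

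Shown first are the members in which a searched sequence lay both in the 250 bases before the gene start and within 100 bp of an FGF19 summit, so that the letters under those summits can be read. Each is given as these 250 bases, 5′ to 3′ on the gene's strand in mm9. Capitals mark exact matches to any of 7 sequences in either direction, and all other bases are in lower case.
Eif4a3, chr11:119161404-119161653, minus strand: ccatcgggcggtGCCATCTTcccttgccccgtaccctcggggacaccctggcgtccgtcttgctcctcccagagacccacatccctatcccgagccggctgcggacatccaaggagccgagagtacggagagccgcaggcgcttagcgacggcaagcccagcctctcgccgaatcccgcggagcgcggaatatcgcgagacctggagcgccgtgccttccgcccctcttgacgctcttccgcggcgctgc
Eif4a1, chr11:69485926-69486175, minus strand: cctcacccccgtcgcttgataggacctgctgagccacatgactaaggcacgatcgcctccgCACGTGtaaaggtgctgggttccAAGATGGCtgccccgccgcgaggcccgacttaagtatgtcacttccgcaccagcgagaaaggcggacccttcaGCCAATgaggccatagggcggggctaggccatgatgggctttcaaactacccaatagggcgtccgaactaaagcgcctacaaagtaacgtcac
Eif4g2, chr7:118226545-118226794, minus strand: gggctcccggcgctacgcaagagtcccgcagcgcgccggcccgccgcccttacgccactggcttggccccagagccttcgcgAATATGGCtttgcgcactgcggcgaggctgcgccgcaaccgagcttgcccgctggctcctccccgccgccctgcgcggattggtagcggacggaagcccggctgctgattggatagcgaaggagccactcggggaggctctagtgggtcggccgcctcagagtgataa
Eif4h, chr5:135115219-135115468, minus strand: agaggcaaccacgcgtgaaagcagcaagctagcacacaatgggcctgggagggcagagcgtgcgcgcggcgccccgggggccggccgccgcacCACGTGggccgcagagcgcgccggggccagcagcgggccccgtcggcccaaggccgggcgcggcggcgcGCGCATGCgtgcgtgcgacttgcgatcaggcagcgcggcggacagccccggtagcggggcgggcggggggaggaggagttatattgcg
Eif5, chr12:112776062-112776311, plus strand: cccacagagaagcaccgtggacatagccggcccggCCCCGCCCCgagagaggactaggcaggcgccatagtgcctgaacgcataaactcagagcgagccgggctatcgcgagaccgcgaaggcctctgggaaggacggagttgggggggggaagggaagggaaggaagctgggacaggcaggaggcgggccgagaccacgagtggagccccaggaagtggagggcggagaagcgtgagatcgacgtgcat
Eef2, chr10:80639126-80639375, plus strand: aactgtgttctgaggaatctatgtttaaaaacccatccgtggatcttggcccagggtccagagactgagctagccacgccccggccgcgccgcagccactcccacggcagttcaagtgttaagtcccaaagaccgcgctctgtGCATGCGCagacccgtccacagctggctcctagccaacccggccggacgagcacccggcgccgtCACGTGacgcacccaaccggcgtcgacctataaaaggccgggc

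In the stretch before Eif4a3 and in the one before Eif4a1 the capitals hold AAGATGGC or its complement, and in the one before Eif4g2 they hold AATATGGC. All are forms of AANATGGC, the core of the YY1 site. Eif4a1, Eif4h and Eef2 carry CACGTG, the E-box bound by Myc and USF proteins. Eif4h and Eef2 also carry GCGCATGC in either direction, the core of the NRF1 site, and Eif5 carries CCCCGCCCC, bound by SP1. Eif4a1 carries GCCAAT, the complement of the NF-Y sequence ATTGGC. A match is a description of the letters and not evidence that the factor was bound.

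Of the 66 members, 8 had a peak in the vehicle list and 14 in the FGF19 list, and 3 of them, Eif4a3, Eif5 and Eef2, had a peak in both. These counts are 12.1% with vehicle (95% Wilson interval 6.27 to 22.1), 21.2% with FGF19 (13.1 to 32.5) and 4.55% in both lists (1.56 to 12.5). Of all protein-coding genes, 7.95% had a peak with vehicle, 16.4% with FGF19 and 4.33% in both. Each of these background shares lies inside the interval of the members, so the counts are not a result about translation factors as a group. The intervals cover counting error only. The vehicle list alone held 5 members, or 7.58%, beside 3.63% of all genes, and the FGF19 list alone held 11, or 16.7%, beside 12.1%. In either list 19 members had a peak (28.8%, 19.3 to 40.6), beside 20.0% of all genes, and 47 had none.

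The FGF19 list is the longer of the pair. When it was shortened to its 1508 peaks with the smallest q-values, it also held 8 members, beside 8.09% of all genes. These were Eef2, Eif1, Eif2c2, Eif4a1, Eif4a3, Eif4g2, Eif4g3 and Eif5, of which 3 were also in the vehicle list. The higher number of members with FGF19 was therefore not seen at equal list length. A peak listed for 1 group only had passed the q-value cutoff of 0.05 in that group, and signal below the cutoff in the other group was not analysed here.

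**Figure D1:**
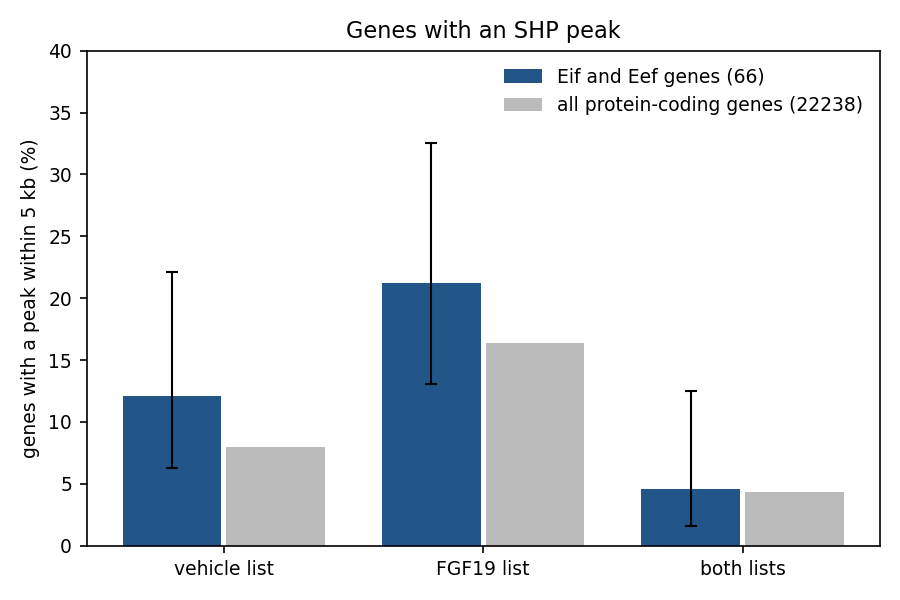
Percentage of genes with an SHP peak within 5 kb of the gene body (vertical axis) in the vehicle list, the FGF19 list and both lists, for the 66 translation factor genes (dark bars, with 95% Wilson intervals) and all 22238 protein-coding genes (grey bars). The members stand at 12.1%, 21.2% and 4.55%, and every grey bar ends inside the interval beside it.

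Grouped by role, the eIF4 genes gave 8 of the 19 listed members. Among the 12 genes of the eIF4 cap-binding, scaffold and helicase proteins, 8 had a peak in either list, whereas among the 13 subunit genes of eIF3, the largest initiation factor, 1 had a peak. The elongation factors had 1 of 8, eIF2 and the tRNA delivery factors 1 of 6, eIF2B 1 of 5, the eIF2 alpha kinases 1 of 4, the Argonautes 1 of 4, and the eIF4E-binding proteins 1 of 4. The eIF1 and eIF1A family had 2 of 5, and so had the genes of eIF5, eIF5A, eIF5B and eIF6. With 20.0% of all genes listed, these small counts were set side by side only, and the difference between the roles was not tested.

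**Figure D2:**
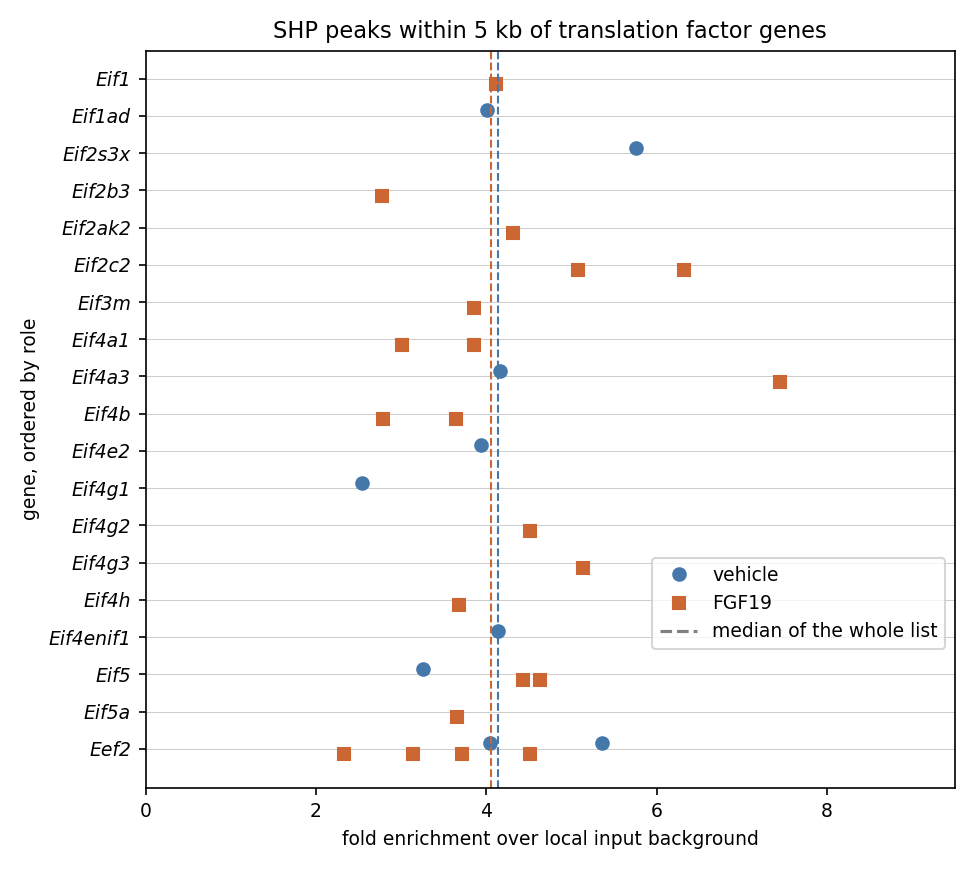
Fold enrichment of each SHP peak over the local input background (horizontal axis) at the 19 listed members, ordered by role from scanning factors to elongation. Circles are vehicle peaks and squares FGF19 peaks, 30 in all, and dashed lines mark the medians of the whole lists, 4.14 and 4.05. The highest point is the FGF19 peak of Eif4a3 at 7.45, and the lowest is the last FGF19 peak of Eef2 at 2.33.

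Eif4a3 encodes the helicase that anchors the exon junction complex on spliced mRNA. Its FGF19 peak had the highest fold enrichment of all 30 at members. The vehicle peak (chr11:119161352-119161644) had its summit 102 bp before the gene start, a pileup of 35 extended tags and a fold enrichment of 4.16. The FGF19 peak (chr11:119161099-119161789) had its summit 185 bp before it, a pileup of 38 and a fold enrichment of 7.45, higher than 97.4% of the FGF19 list. The AAGATGGC match shown above is centred 49 bp from the FGF19 summit, and outside 100 bp of the vehicle summit. The pileups of 35 (95% Poisson interval 24.4 to 48.7) and 38 (26.9 to 52.2) have wide overlapping counting intervals. The log2 ratio of fold enrichment, FGF19 to vehicle, was 0.84, and that of the pileup was 0.12, or 0.32 after scaling to library size. The local background worked out from pileup and fold enrichment was 7.66 tags with vehicle and 4.24 with FGF19.

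Eif5 encodes the protein that triggers GTP hydrolysis by eIF2 at the start codon. Its vehicle peak (chr12:112776071-112776462) had a pileup of 21 and a fold enrichment of 3.26. The overlapping FGF19 peak (chr12:112775888-112776383) had a pileup of 24 and a fold enrichment of 4.63. Both summits were upstream of the gene start, by 141 bp with vehicle and 221 bp with FGF19, and both windows held the CCCCGCCCC match. The log2 ratio was 0.51 for fold enrichment and 0.40 for the pileup scaled to library size. The Poisson intervals of these pileups overlap, and the local background was 5.74 tags with vehicle and 4.40 with FGF19. A further FGF19 peak, with a fold enrichment of 4.43, had its summit 748 bp inside the gene, 4 bp from the start of another Eif5 transcript, and had no counterpart with vehicle.

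Eef2, the translocase of elongation, had the most peaks of any member, with 2 in the vehicle list and 4 in the FGF19 list at 5 separate places. Of the 8 members in the elongation role it was the only one with a peak in these lists. In the vehicle list both summits were in coding exons, the first (chr10:80642274-80642817) at 3059 bp into the gene with a pileup of 20 and a fold enrichment of 4.04 and the next at 5392 bp with 5.36. In the FGF19 list the first summit was 44 bp upstream of the start with a fold enrichment of 3.15, the next in a coding exon at 1188 bp with 4.52, and the third in the 3′ UTR exon at 5499 bp with 3.72. The last FGF19 summit was 410 bp past the end of the gene, 932 bp from the start of 4930442H23Rik, and at 2.33 it had the lowest fold enrichment of the 30. Its -log10 q-value of 1.33 was higher than only 0.13% of the FGF19 list. The only shared place was the end of the gene, at chr10:80644648-80645120 with vehicle and chr10:80644737-80645038 with FGF19. There the pileup was 23 with vehicle and 20 with FGF19, or 1.49 per 1000000 tags in both, and the log2 ratio of fold enrichment was -0.53. The Poisson intervals of these pileups overlap, and the local background was 3.48 tags with vehicle and 4.64 with FGF19. The promoter peak of Eef2 was listed with FGF19 only. The E-box shown above is centred 3 bp from its summit, and a full TGACGTCA, bound by CREB and ATF proteins, begins just inside the gene.
Eef2, chr10:80639367-80639396, plus strand: aggccgggcgtTGACGTCAgcggtctcttc

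**Figure D3:**
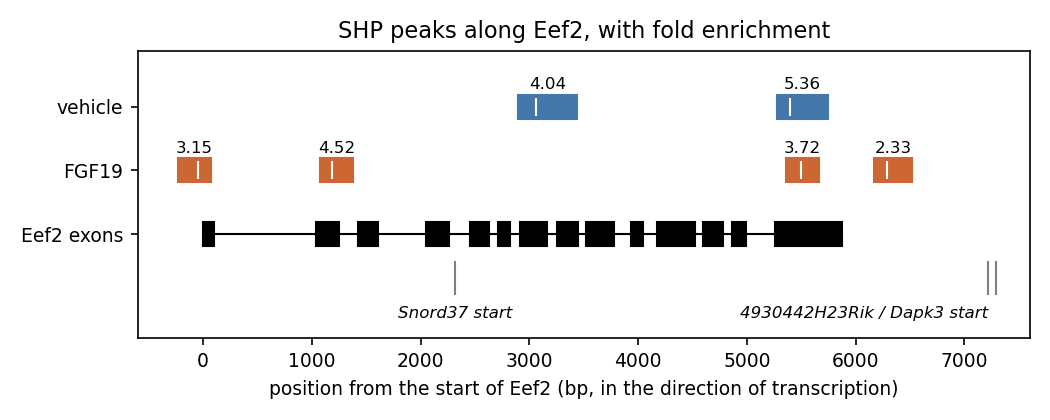
SHP peaks along Eef2, drawn as distance from the gene start in bp in the direction of transcription (horizontal axis), with vehicle peaks in the upper row, FGF19 peaks in the middle row and exons as black boxes. White ticks are summits and the numbers are fold enrichments. The only overlap between the rows is over the last exon, at 5.36 with vehicle and 3.72 with FGF19.

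Over the 3 places where member peaks of both lists overlapped, the median log2 ratio of fold enrichment was 0.51, with a lowest value of -0.53 and a highest of 0.84. Over all 695 overlapping pairs of peaks it was -0.02, with quartiles of -0.37 and 0.32. Eif4a3 and Eif5 were higher with FGF19 and Eef2 was lower, and with 1 library per group these differences could not be tested. At all 3 places the local background was lower in the group with the higher fold enrichment. The log2 ratios of the pileup were 0.12 at Eif4a3, 0.19 at Eif5 and -0.20 at Eef2, smaller in size than those of fold enrichment. The background is computed from pileup and fold enrichment, so its direction follows from these ratios and is no separate observation. Why the background differed was not tested.

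Of the other eIF4 genes, Eif4a1 encodes the main helicase of cap-dependent initiation and had 2 FGF19 peaks and none with vehicle. The upstream peak (chr11:69485697-69486161) had its summit 116 bp before the gene start and a pileup of 37, higher than 93.3% of the FGF19 list. Its fold enrichment was 3.01, higher than only 10.6% of the list, over a local background of 11.6 tags, the highest at any member peak. The inner peak, with a fold enrichment of 3.86, had its summit 1014 bp inside the gene and 41 bp from the start of a shorter transcript. Eif4b and Eif4h encode RNA-binding proteins that stimulate this helicase, and both had a promoter peak with FGF19 only. The Eif4b peak (chr15:101904081-101904557) likewise combined a pileup of 32 with a background of 10.8 and a fold enrichment of 2.79. The Eif4h peak (chr5:135114985-135115584) had a pileup of 22 and a fold enrichment of 3.68, and its E-box was 4 bp from the summit. A second FGF19 peak near Eif4b lay 3509 bp past its end, 203 bp from a start of the neighbouring gene Tenc1.

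The 3 scaffold genes each had a peak, but not in the same list. Eif4g1, the main bridge between the cap complex and eIF3, had a vehicle peak (chr16:20672296-20672586), with a fold enrichment of 2.54 and a -log10 q-value of 1.39, the lowest of the vehicle list. It lay 4169 bp inside the annotated gene and 241 bp upstream of the start of another Eif4g1 transcript. Eif4g2, also called DAP5, supports translation without cap binding. Its FGF19 peak (chr7:118226042-118226950) was the longest of the member peaks at 909 bp, with its summit 147 bp upstream, a pileup of 28 and a fold enrichment of 4.52. The AATATGGC match lay 17 bp from this summit. The Eif4g3 peak (chr4:137549302-137549690) had a pileup of 28, a fold enrichment of 5.14 with FGF19 and its summit 89 bp from the start of an Eif4g3 transcript.

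Among the genes of the cap-binding proteins and their inhibitors, Eif4e2 and Eif4enif1 had a peak. Of all protein-coding genes 20.0% had one in either list, so the lack of peaks at the others is not particular to them. Eif4e itself, Eif4e1b, Eif4e3 and the genes of the inhibitors Eif4ebp1, Eif4ebp2 and Eif4ebp3 had none in either list, and so had the helicase gene Eif4a2. Eif4e2, which encodes a cap-binding repressor of translation, had a vehicle peak (chr1:89110247-89110674), with a pileup of 22, a fold enrichment of 3.94 and its summit 99 bp inside the gene. Eif4enif1, which carries eIF4E into the nucleus, had a vehicle peak (chr11:3102310-3102569), with its summit 17 bp inside the gene. Its pileup of 42 was the highest at any member peak and exceeded 89.4% of the vehicle list, whereas its fold enrichment of 4.14 was at the list median, over a background of 9.38 tags. Neither gene had an FGF19 peak within 5 kb, and the nearest was 660530 bp away from Eif4e2 and 45369 bp away from Eif4enif1.

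**Figure D4:**
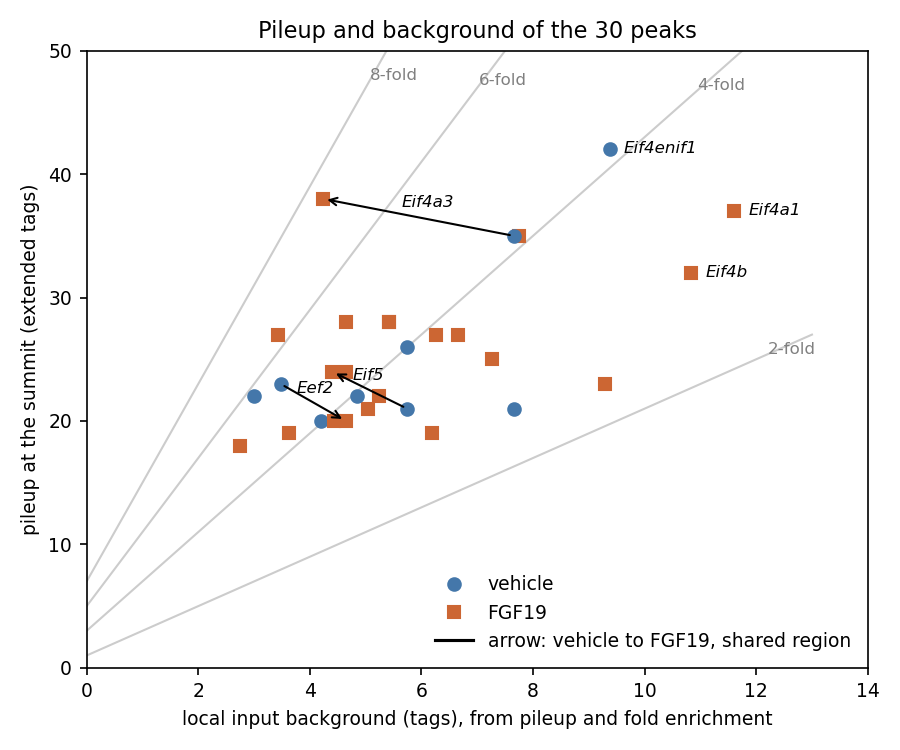
Pileup of extended tags at the summit (vertical axis) against the local input background in tags (horizontal axis) for the 30 member peaks, with grey lines of equal fold enrichment. Arrows lead from vehicle to FGF19 at the 3 shared places. Eif4a1 and Eif4b lie far to the right with backgrounds of 11.6 and 10.8, and the Eif4a3 arrow runs leftwards at almost the same height, from 7.66 to 4.24.

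Among the genes that handle eIF2, Eif2s3x, the gamma subunit gene on chromosome X, had the vehicle peak with the highest fold enrichment of the members (chrX:91458068-91458320), at 5.76, although its pileup of 22 was below the list median of 24. Its summit was 53 bp inside the gene, over the lowest background of the vehicle member peaks, 3.00 tags. The subunit genes Eif2s1 and Eif2s2 had none, and neither had Eif2a or Eif2d. Eif2s3y lies on chromosome Y, where the lists hold 0 peaks at all. Eif2b3, a subunit of the factor that recharges eIF2 with GTP, had an FGF19 peak (chr4:116691929-116692249) with a fold enrichment of 2.78, higher than 5.10% of the list. The other eIF2B genes, Eif2b1, Eif2b2, Eif2b4 and Eif2b5, had none. Of the kinases that stop initiation by phosphorylating eIF2, Eif2ak2, which encodes the double-stranded RNA sensor PKR, had an FGF19 peak (chr17:79281643-79281905), with a pileup of 19 and a fold enrichment of 4.32. The genes of HRI, PERK and GCN2, which are Eif2ak1, Eif2ak3 and Eif2ak4, had none.

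The scanning factor gene Eif1, which guards start codon choice, had an FGF19 peak (chr11:100181315-100181595), with its summit 149 bp inside the gene, a pileup of 35 and a fold enrichment of 4.12. Eif1ad, which encodes a protein related to eIF1A, had a vehicle peak (chr19:5366689-5367211), with its summit at 0 bp from the gene start, a pileup of 26 and a fold enrichment of 4.00. Eif1a, Eif1ax and Eif1b had none. Eif3m was the only eIF3 subunit gene with a peak in these lists, with FGF19 (chr2:104856936-104857537), at a pileup of 20 and a fold enrichment of 3.86. The genes from Eif3a to Eif3l had none. Eif5a, whose product carries hypusine and helps the ribosome through difficult peptide bonds, had an FGF19 peak (chr11:69734708-69735132), with a fold enrichment of 3.66 and a summit 35 bp from the start of an Eif5a transcript. Eif5a2, Eif5b and Eif6 had none.

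Of the Argonautes, Eif2c2, which encodes the slicing Argonaute AGO2, had 2 FGF19 peaks on chromosome 15 and none with vehicle. The upstream peak (chr15:73015603-73015923) had its summit 383 bp before the gene start, a pileup of 27 and a fold enrichment of 6.32, which exceeded 94.5% of the FGF19 list. The other (chr15:73015137-73015416) had its summit 62 bp inside the gene and a fold enrichment of 5.07 with a pileup of 18. These peaks rank high by fold enrichment over low backgrounds of 3.43 and 2.74 tags. Eif2c1, Eif2c3 and Eif2c4 had none. Among the elongation genes, Eef1a1, Eef1a2, Eef1b2, Eef1d, Eef1e1, Eef1g and Eef2k had none.

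Member peaks were of middling strength within the lists. Their median fold enrichment was 4.04 with vehicle (range 2.54 to 5.76) and 3.86 with FGF19 (2.33 to 7.45), beside 4.14 and 4.05 over all peaks. The median pileup was 22 with vehicle and 25 with FGF19, beside 24 in both lists. With vehicle 4 of 9 member peaks were above the median fold enrichment of the list, and with FGF19 10 of 21. No member reached the top of either list, where fold enrichment went up to 28.1 with vehicle and 36.6 with FGF19.

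Most member peaks lay at promoters. With vehicle 8 of 9 summits were within 1 kb of an annotated transcription start site (TSS), which is 88.9% (56.5 to 98.0), beside 72.7% of all vehicle peaks. With FGF19 19 of 21 were, which is 90.5% (71.1 to 97.3), beside 81.8% of all FGF19 peaks, and both list values lie inside these intervals. Counted to a start of the member itself, they were 7 of 9 and 17 of 21. The vehicle summit that this leaves out is in a coding exon of Eef2, 740 bp from the start of the small nucleolar RNA gene Snord37, and those with FGF19 are the last at Eef2 and the one near Tenc1. These 3 windows are among the 8 and 19 promoter peaks used for base content and sequences. All 7 of these with vehicle and 16 of the 17 with FGF19 were within 250 bp, on both sides: 3 of 7 lay upstream with vehicle and 10 of 17 with FGF19. Outside Eef2, 1 member peak was farther than 1 kb from every start of its gene, the one beyond Eif4b.

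**Figure D5:**
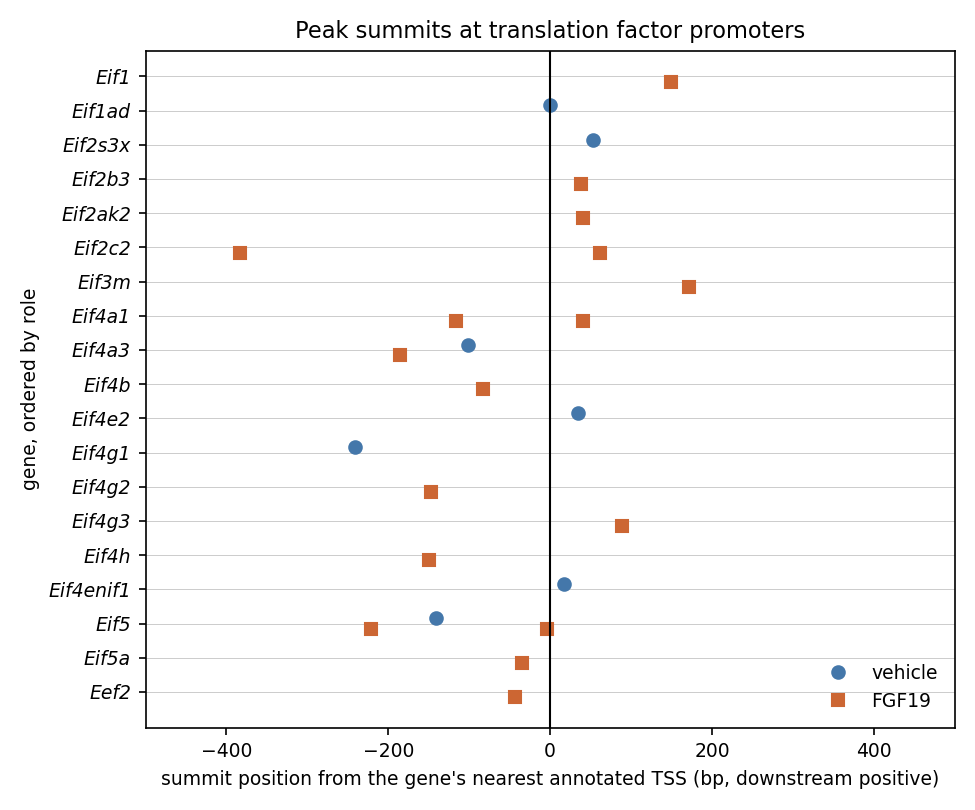
Position of each promoter peak summit from the nearest annotated start of its own gene, in bp with downstream positive (horizontal axis), for the members with such a peak, ordered by role. Circles are vehicle and squares FGF19 summits. All but the upstream Eif2c2 summit, 383 bp before the start, fall within 250 bp of a start.

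Of the members, 10 start within 1 kb of a protein-coding gene on the other strand, and the peak of 1 of these, Eif1ad, which starts 168 bp from Banf1, cannot be assigned to either gene. The median gene body was 19472 bp long for the 19 listed members and 17751 bp for the 47 others, beside 15512.5 bp for all protein-coding genes. The windows of 100 bp on each side of the promoter summits had a median GC content of 64.4% with vehicle and 69.7% with FGF19, beside 66.2% and 69.7% for all promoter peaks of the lists.

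In all, 7 sequences were searched by exact match on both strands in these windows, AANATGGC (YY1 core), CCCCGCCCC (SP1), ATTGGC (NF-Y), CCGGAAG (ETS factors), GCGCATGC (NRF1 core), CACGTG (E-box) and TGACGTCA (CRE). CACGTG and TGACGTCA read the same on both strands and were counted once for a window, and none of the other sequences contains another. With FGF19 10 of 19 promoter peaks held at least 1 of them, which is 52.6% (31.7 to 72.7), beside 46.7% of the 2581 FGF19 promoter peaks and 38.8% of the starts of all protein-coding genes. With vehicle 3 of 8 did, or 37.5% (13.7 to 69.4), beside 50.5%. The E-box was in 4 of 19 member windows with FGF19, at Eef2, Eif4a1, Eif4h and Eif5a, which is 21.1% (8.51 to 43.3), beside 6.59% of all FGF19 promoter peaks and 5.55% of gene starts. Around the annotated starts of the 66 members the E-box was in 7, or 10.6% (5.23 to 20.3). Of these 7, 2 were among the 19 listed members and 5 among the 47 others. The NRF1 core was in 3 of 19 FGF19 windows, or 15.8% (5.52 to 37.6), beside 3.87%, but in 0 of 19 with 50 bp on each side of the summit. Of these 3 windows 2 are at Eef2, the second past the end of the gene. The YY1 core, the SP1 sequence and the NF-Y sequence were each also in 3 of 19, beside 8.29%, 16.9% and 11.9%. The CRE was in 2 of 19, both at Eef2, beside 2.01%, and 1 of these is again the window past the end of the gene. That peak was close to the q-value cutoff. With vehicle 0 of 8 windows held the E-box, the NRF1 core or the YY1 core, which at this number of peaks allows up to 32.4% by the same interval. With 200 bp on each side, 2 of 8 held the YY1 core, beside 18.6% of all vehicle promoter peaks. The E-box was then in 1 of 8, beside 14.2%, and the NRF1 core in 0 of 8, beside 6.56%. The Eif5a window held an E-box 36 bp from the summit, next to the complement of CCCCGCCCC, and is shown with the capitals marking the E-box.
Eif5a, chr11:69734945-69734974, minus strand: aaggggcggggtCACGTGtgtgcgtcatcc

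CCGGAAG, bound by ETS factors, was counted at gene starts as well as at peaks. Around the annotated starts of the 66 members it was found in 16, which is 24.2% (15.5 to 35.8), beside 9.39% of all protein-coding gene starts. The member starts differ in base content, with a median GC of 65.7% beside 58.7% for all starts. Their median ratio of observed to expected CpG was 0.92, beside 0.61. CCGGAAG holds a CpG, and no share at starts was compared at equal base content. Of these 16 starts, 8 belong to eIF3 subunit genes, Eif3c, Eif3d, Eif3g, Eif3h, Eif3i, Eif3k, Eif3l and Eif3m, out of 13. No SHP peak was listed at 13 of the 16, and 80.0% of all protein-coding genes and 71.2% of the members were likewise in neither list. The sequence was in 0 of 19 member promoter peaks with FGF19 (upper limit 16.8%), beside 11.5% of all FGF19 promoter peaks, and in 2 of 8 with vehicle, at Eif1ad and Eif4e2, beside 10.1%. With 200 bp on each side of the summit it was in 3 of 19 with FGF19, beside 20.1%. At that width it was in 2 of 8 with vehicle, beside 20.0%. The YY1 core was at 7 of 66 member starts, or 10.6% (5.23 to 20.3), beside 5.73% of all protein-coding gene starts. They were the starts of Eef1e1, Eif1b, Eif2s3y, Eif3e, Eif3f, Eif3h and Eif4e3, and 0 of these 7 genes had a peak in either list. With 71.2% of the members in neither list, 7 genes are too few to read anything from this. The 3 member peaks with that core had it farther upstream, 162 to 234 bp before the gene start. These matches were picked out after their values were seen, and the windows at starts and at summits cover different bases. The ETS matches of the vehicle peaks are shown with the 7 matching bases in capitals, which at Eif1ad are the complement of CCGGAAG.
Eif1ad, chr19:5366823-5366851, plus strand: ctccagcggccCTTCCGGtctgtgggatc
Eif4e2, chr1:89110480-89110508, plus strand: tcgccagccaaCCGGAAGtagccgggccc

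Another 40 genes that act in translation or its control were listed beside the members, among them termination factors, poly(A)-binding proteins, the mTOR pathway and the mitochondrial factors. A vehicle peak within 5 kb of the gene body was found at 7 of them and an FGF19 peak at 12. These counts are 17.5% (8.75 to 31.9) and 30% (18.1 to 45.4), beside 7.95% and 16.4% of all protein-coding genes. A peak in both lists was found at 4 of them, or 10% (3.96 to 23.1), beside 4.33% of all genes. The list was put together by hand with earlier results of these data known, so these shares support nothing about translation genes in general. Pabpc1, which encodes the main poly(A)-binding protein and works with eIF4G, had a promoter peak in both, with a pileup of 26 and a fold enrichment of 3.12 with vehicle and a pileup of 31 and a fold enrichment of 5.29 with FGF19. Etf1, the stop codon reader eRF1, had a pileup of 24 with vehicle and 42 with FGF19, at fold enrichments of 4.46 and 4.52. Denr, a factor that recycles ribosomes and restarts initiation, had its strongest peak with vehicle, with a pileup of 51 and a fold enrichment of 10.1, against 38 and 4.46 with FGF19. Tufm, the mitochondrial counterpart of eEF1A, had fold enrichments of 3.55 and 3.70. Of the 40 genes, 3 had a peak with vehicle only (7.5%, beside 3.63% of all genes) and 8 with FGF19 only (20%, beside 12.1%). Those with vehicle only included Dhx29, with a fold enrichment of 4.45, and Mtif2, with 5.09. The Mtif2 summit was not at the gene start but 21612 bp downstream of it, 70 bp from an annotated TSS. Those with FGF19 only included Gspt1, the partner of eRF1, with a fold enrichment of 3.54, and Abce1, which splits ribosomes, with 3.45. They also included Rheb, the activator of mTOR, with 3.57, and Rps6kb1, the S6 kinase gene, with 2.98. Mknk1 and Mknk2 encode the kinases of eIF4E, and Mknk1 had a peak with vehicle only, at a fold enrichment of 4.13, and Mknk2 with FGF19 only, at 2.86.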

How the data were processed

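SHP ChIP and input samples from mouse liver, pooled within each group, were sequenced by the study for a vehicle and an FGF19 group. Per the submitters' processing notes and the file headers, the authors used Bowtie 1.0.0 (2 mismatches at most, mm9) and MACS2 2.0.10.20130501 with the matching input as control (q-value cutoff 0.05, at most 1 tag per position and strand). Whether reads that map to several places were kept is not given in the sources used here, and this bears on members with processed copies, such as Eif4a1 and Eef1a1. The deposited signal is the pileup of extended ChIP tags at the summit. The deposited fold enrichment is a ratio of the pileup to the local input background. The deposited -log10 p-values and -log10 q-values are those of the peak caller. The inputs were the larger libraries and were scaled down to the ChIP libraries by the peak caller.

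Genes were taken from GENCODE M1, which uses the build of the peaks. Records with the same symbol were counted as 1 gene, and the longest gave the gene body. The local background was computed as (pileup + 1) / fold enrichment - 1. Wilson intervals (95%) for shares and exact Poisson intervals (95%) for pileups cover counting error only. Peaks were called shared from 1 bp of overlap. No p-value is given for a difference between groups, since each group is 1 library of 3 pooled mice. Every member is named. The 5 member peaks with the highest fold enrichment in each list and every shared place are given with coordinates, summit position, pileup and fold enrichment, without q-values. The members, gene lists and sequences searched were chosen with earlier results of these data known. The gene and peak matching was tested on simulated data. Tables were joined with pandas 2.3.3 in Python 3.11.15, intervals came from scipy 1.17.1, sequence was read with pyfaidx 0.9.0.4, and plots were drawn with matplotlib 3.10.9. The alternatives covered the window, the q-value, the list length, the rule for shared peaks, the TSS set and the sequence window.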

Additional observations from a re-analysis of the deposited data

How the results depend on the processing

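With peaks at a -log10 q-value of at least 5, the members with a peak fell to 5 with vehicle and 9 with FGF19, and with the FGF19 list shortened to the length of the vehicle list the FGF19 count was 8. Widening the distance to the TSS to 2 kb moved the share of member peaks at promoters to 100% in both groups, and so did leaving out Eef2, an alternative chosen after seeing the data. The share of vehicle promoter peaks with any of the 7 sequences was 12.5% with 50 bp on each side of the summit and 75% with 200 bp, from 8 peaks. The other 48 recomputed values of the main results stayed within 1.5 times of a count, or inside the interval of a share or median. The median log2 ratio at the shared places, 0.51, ranged from 0.12 (ratio of pileups) to 0.67 (summits at most 100 bp apart, n = 2). For single sequences 26 values stayed and 2 moved to 0% with 50 bp on each side, the NRF1 core with FGF19 (from 15.8%) and SP1 with vehicle (from 12.5%). No paired analysis was possible because each group has 1 library. For the same reason no library could be left out, and the spread between mice is unknown.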

Other observations

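Among the 47 members with no peak within 5 kb, the nearest FGF19 peak was a median of 107230 bp away and the nearest vehicle peak 237864 bp, over the 46 that lie on a chromosome with peaks. Eif2b4 came closest, with an FGF19 peak 8619 bp from its body. Eif4g3, which had an FGF19 promoter peak, had a vehicle peak 8290 bp from its body. Within 10 kb the counts of members were therefore 9 with vehicle, 15 with FGF19 and 4 in both lists. The 4 pseudogenes and 1 processed transcript that share the name pattern (Eif4a-ps4, Eif5al3-ps, Eif3s6-ps1, Eif3s6-ps2 and Eif2c5) had 0 peaks within 5 kb in either list.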
